A study of Homo sapiens with 6 samples.

Results

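The BCL2 family sets the threshold at which a cell commits to death through its mitochondria. Its anti-apoptotic members, such as BCL2, BCL-XL (encoded by BCL2L1) and MCL1, hold back the effectors BAX and BAK1, which form pores in the outer mitochondrial membrane and release cytochrome c. BH3-only members, such as BID, BAD, BBC3 (PUMA), PMAIP1 (NOXA) and BCL2L11 (BIM), carry a single short helix that occupies the anti-apoptotic members or activates the effectors. Carcinoma cells, those of the pancreas included, are known to lean on BCL-XL and MCL1, and many cytotoxic drugs kill through this family. The 10 genes named here were taken by symbol from the mRNA table of 19912 rows, with no filter on their values, and all 10 were found once. The family itself was chosen with earlier results of these data known.

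The libraries came from PANC-1, an established human pancreatic ductal carcinoma line, in a derivative resistant to gemcitabine, a nucleoside drug. Both groups share that line and resistance, and the labels do not say how the resistance was raised or whether the cells are 1 clone. One group of 3 libraries is labelled shSRSF3, a short hairpin RNA (shRNA) against the splicing factor SRSF3, and the other 3 are labelled ctrl. The labels name no batch and do not say whether replicates are separate cultures, so p-values measure only the spread between these libraries. Values are deposited FPKM, fragments counted per gene and scaled by gene length and library depth. Levels can be compared between genes only as far as the gene lengths used are right.

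The targeted gene SRSF3 had 36.9, 37.1 and 38.6 FPKM in libraries labelled knockdown 1 to 3, beside 37.0, 39.6 and 39.2 FPKM in control libraries 1 to 3. No fall was detected (log2 difference -0.04, SE 0.05, limma adjusted p = 0.612, and adjusted p from 0.160 to 0.867 over 14 other settings). Every direction given here is therefore that of libraries labelled knockdown. Recovered totals lay between 24903382 and 27300517 fragments in the libraries labelled knockdown and between 24558238 and 27351642 in controls. A chi-square test of fragments gave, per gene, 10.1 to 29.3 for pairs of libraries labelled knockdown and 3.18 to 6.33 for control pairs. Mitochondrial genes held 32.1%, 27.5% and 25.6% of the summed FPKM of the mRNA table in libraries labelled knockdown 1 to 3, against 25.6% to 26.2% in controls. Markers of the labelled epithelium, KRT8, KRT18, KRT19 and EPCAM, were abundant. KRT18 had 2067, 1631 and 1501 FPKM in libraries labelled knockdown 1 to 3, all above the 1429.7, 1398 and 1345 FPKM of control libraries 1 to 3 (log2 difference 0.30, SE 0.11, limma adjusted p = 0.0923; it passed in 2 of 14 other settings, with adjusted p from 0.0190 to 0.736). KRT7, another keratin of duct epithelium, was at 0.0895 to 0.2003 FPKM in the libraries labelled knockdown and at 0.129 to 0.241 FPKM in controls. Summed fibroblast markers reached 0.304 to 0.423 FPKM in the libraries labelled knockdown and 0.383 to 0.446 FPKM in controls. The sums of endothelial markers were 0.160 to 0.277 FPKM and 0.173 to 0.253 FPKM, in the same order. Leukocyte markers summed to 2.64 to 2.70 FPKM in the libraries labelled knockdown and to 2.44 to 2.82 FPKM in controls. CD14 made up nearly all of that sum, with 2.64 to 2.65 FPKM in the libraries labelled knockdown and 2.42 to 2.80 FPKM in controls, while PTPRC was at 0 in all 6 libraries.

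Of the 10 family genes, 3 were higher in the libraries labelled knockdown and 0 were lower. They were BCL2L1, which holds cells alive, and both pore-forming effectors, BAX and BAK1. The other anti-apoptotic genes, MCL1 and BCL2, and all 5 BH3-only genes did not pass. All 10 genes passed the filter on low values (a mean of at least 0.5 FPKM) and were tested with limma on log2(FPKM + 1), with Benjamini-Hochberg adjustment over 10823 genes and a threshold of 0.05. Of all genes tested, 16.8% passed, 10.9% higher and 5.91% lower. The median log2 difference was 0.03 over the 10 genes and 0.02 over all genes tested. Genes at a higher level passed more often. With a filter of 5 FPKM, 1666 of 6311 genes passed, 1207 higher and 459 lower, with a median of 0.05. In that setting 3 of the 8 family genes tested passed. Fewer cells of a kind and less RNA per cell cannot be told apart in such bulk libraries. Groups did not overlap for the same 3 genes, and among all genes tested the share without overlap was 37.9%, with 22.6% higher and 15.3% lower. A share of 3 in 10 lay near that background.

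**Figure D1:**
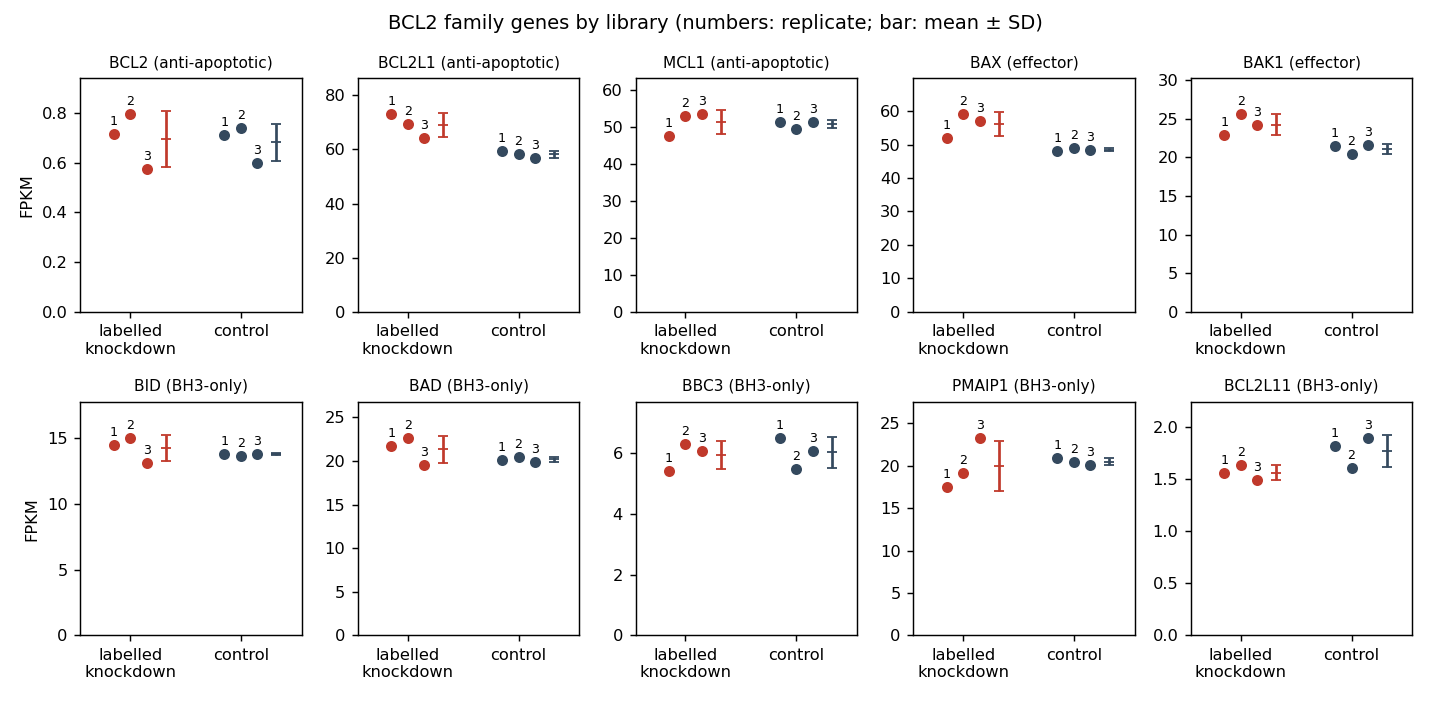
FPKM (vertical axis, from 0) of each of the 10 family genes in the 3 libraries labelled knockdown (red, left) and the 3 controls (dark, right), with the replicate number above each point and the mean ± SD beside them. BCL2L1, BAX and BAK1 show 3 red points above all dark ones, and PMAIP1 shows the widest red spread of the BH3-only genes, between 17.5 and 23.3 FPKM.

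The family's levels spanned a wide range, and its order was similar in all 6 libraries. By FPKM, BCL2L1 was the most abundant member, at 69.0 ± 4.39 FPKM in the libraries labelled knockdown and 58.2 ± 1.33 FPKM in controls (SD, n = 3 each), and it exceeded BAX in 6 of 6 libraries. BAX and MCL1 followed, with means over all libraries of 52.3 and 51.1 FPKM. Their order by FPKM differed by label: BAX exceeded MCL1 in 3 of 3 libraries labelled knockdown and in 0 of 3 controls. That order rests on the gene lengths in the FPKM, recovered as 2587 bases for BAX and 4371 for MCL1. Before scaling by length MCL1 had more fragments, 5330 to 6383 per library against 3049 to 4030 for BAX. BAK1, BAD and PMAIP1 lay close together, with means over all libraries of 22.7, 20.7 and 20.2 FPKM and overlapping ranges. BID (14.0 FPKM), BBC3 (5.97 FPKM), BCL2L11 (1.67 FPKM) and BCL2 (0.688 FPKM) followed, each below the one before in 6 of 6 libraries with ranges apart. BCL2, the gene that gave the family its name, was thus the least abundant of the 10, at a level that rested on 184 to 233 fragments per library, against 4849 to 6208 for BCL2L1.

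BCL2L1 makes BCL-XL and, from another 5′ splice site in the same exon, the shorter pro-apoptotic form BCL-XS. Its FPKM sums both forms, so the balance between them was not measured. It stood at 73.1, 69.6 and 64.4 FPKM in libraries labelled knockdown 1 to 3, against 59.6, 58.2 and 56.9 FPKM in control libraries 1 to 3. All 3 libraries labelled knockdown were above all controls, with library 1 the highest. BCL2L1 rose by 0.24 on the log2(FPKM + 1) scale (SE 0.06, limma adjusted p = 0.0183), or 18.0% with a 95% interval from 8.32% to 28.7%. An exact two-sided permutation test of the means gave p = 0.1, the smallest that 3 against 3 can give. The order of the 3 libraries labelled knockdown, 1 above 2 above 3, is also that of their mitochondrial share. In library 3, whose mitochondrial share of 25.6% lay within the range of controls, BCL2L1 was above every control. Without library 1 the log2 difference of BCL2L1 was 0.20 (limma adjusted p = 0.0290). Library 3 is a single library, and the part of the mitochondrial share in the rise of BCL2L1 was not tested.

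The BCL2L1 call was lost without library labelled knockdown 2 (adjusted p = 0.0629), control library 2 (0.0776) or control library 3 (0.0836), within a range from 0.00438 to 0.0836 over 14 other settings, and the log2 difference stayed between 0.22 and 0.24 in those 3. With quantile normalization, which gives all libraries the same distribution, it was 0.13 (limma adjusted p = 0.0404). Where the BCL2L1 locus is annotated, RefSeq places the lncRNA gene BCL2L1-AS1, not analysed here, across it, and without stated strand the reads of both cannot be told apart.

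BAX waits mostly in the cytosol and moves to mitochondria when activated. Its values were 52.0, 59.1 and 57.1 FPKM in libraries labelled knockdown 1 to 3 and 48.0, 48.9 and 48.4 FPKM in control libraries 1 to 3. The controls lay within 1 FPKM of each other, and the lowest library labelled knockdown, library 1, was 3.15 FPKM above the highest control. BAX rose by 0.21 (log2, SE 0.06, limma adjusted p = 0.0307), or 15.3% (95% interval from 5.93% to 25.5%), with an exact permutation p = 0.1.

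BAK1 sits in the outer mitochondrial membrane from the start. It had 22.9, 25.6 and 24.3 FPKM in libraries labelled knockdown 1 to 3, against 21.4, 20.4 and 21.6 FPKM in control libraries 1 to 3. The groups were apart by 1.25 FPKM, less than the range within the libraries labelled knockdown. BAK1 rose by 0.19 (log2, SE 0.05, limma adjusted p = 0.0396), or 14.0% (95% interval from 4.80% to 23.9%), with an exact permutation p = 0.1. RefSeq (GRCh38.p14) lists the pseudogenes BAK1P1 and BAK1P2, with which reads of BAK1 can have been shared.

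Both effector calls were near the threshold. BAX failed when library labelled knockdown 2 was left out (limma adjusted p = 0.111), as it did when control library 1, 2 or 3 was (0.0935, 0.105 and 0.104), with a range from 0.00625 to 0.193 over 14 settings. For BAK1 the same 4 omissions gave 0.136, 0.0881, 0.173 and 0.0963, with a range from 0.0182 to 0.173. Quantile normalization brought the log2 difference of BAX to 0.11 (adjusted p = 0.193) and that of BAK1 to 0.12 (0.153). With no filter on low values they did not pass either (0.0656 and 0.0756), while without library labelled knockdown 1 both passed with log2 differences of 0.26 and 0.23.

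**Figure D2:**
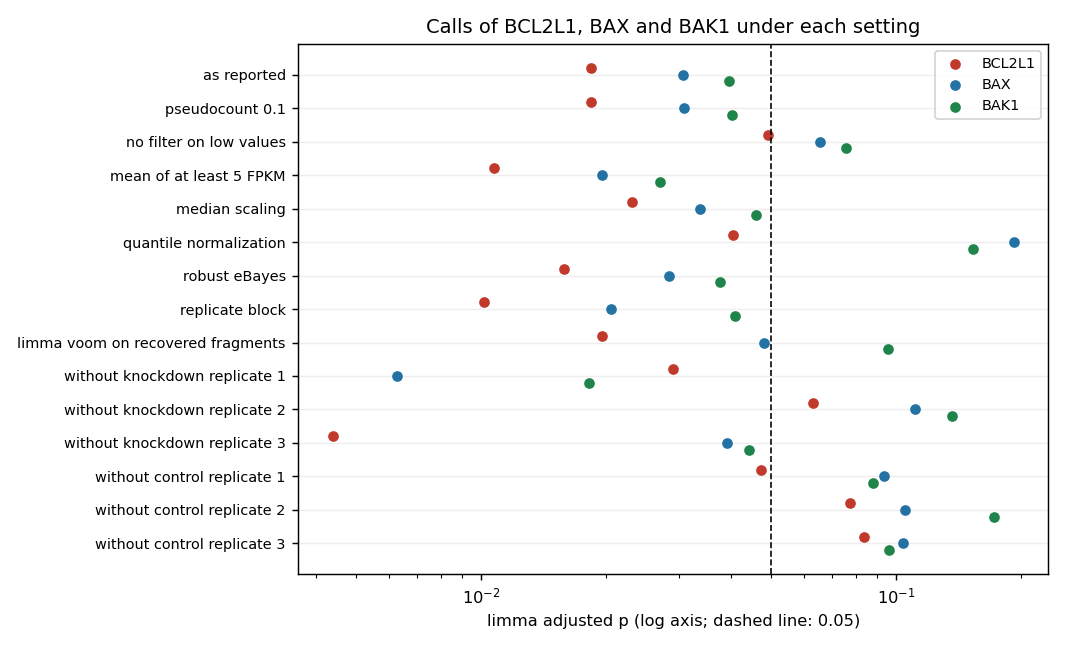
Limma adjusted p (horizontal log axis) of BCL2L1 (red), BAX (blue) and BAK1 (green) as reported and under each of 14 other settings (rows); the dashed line marks 0.05 and points left of it passed. BCL2L1 passed in 11 of the 14 other settings, BAX in 8 and BAK1 in 7, and all 3 failed without library labelled knockdown 2, control library 2 or control library 3.

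The 3 genes that rose are shown here with the bases before their RefSeq start, since those windows are where general promoter elements would lie. Each is 250 bases on GRCh38.p14, read 5′ to 3′ on the gene's strand and ending next to the annotated start. Capitals mark matches on either strand to the GC box (GGGCGG), the CCAAT box, the TATA box (TATAAA), the E-box (CACGTG), the AP-1 site (TGANTCA) or the CRE and E2F sites, the last of which are given by name. The windows are BCL2L1 at chr20:31723964-31724213 (minus strand, the upstream of its 2 starts in the table), BAX at chr19:48954625-48954874 (plus strand) and BAK1 at chr6:33580277-33580526 (minus strand).
BCL2L1: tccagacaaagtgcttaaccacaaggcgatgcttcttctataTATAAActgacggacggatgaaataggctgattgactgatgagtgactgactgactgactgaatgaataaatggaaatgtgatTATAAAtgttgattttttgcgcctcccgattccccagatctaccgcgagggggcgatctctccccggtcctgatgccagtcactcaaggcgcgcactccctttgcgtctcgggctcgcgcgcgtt
BAX: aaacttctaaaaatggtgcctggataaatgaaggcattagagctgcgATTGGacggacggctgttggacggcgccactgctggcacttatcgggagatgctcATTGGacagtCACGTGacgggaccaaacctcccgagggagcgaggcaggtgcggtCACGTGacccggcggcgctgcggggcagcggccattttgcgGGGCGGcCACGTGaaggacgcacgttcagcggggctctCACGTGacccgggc
BAK1: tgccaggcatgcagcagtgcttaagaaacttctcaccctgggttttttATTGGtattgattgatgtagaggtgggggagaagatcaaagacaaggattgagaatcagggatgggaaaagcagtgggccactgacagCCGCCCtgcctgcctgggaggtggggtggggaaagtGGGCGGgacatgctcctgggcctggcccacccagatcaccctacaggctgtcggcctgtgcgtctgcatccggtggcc
The windows differed in what they held. The BCL2L1 window had 2 TATA box matches, the only ones among family windows, while 10.7% of all 35116 windows in the table have at least 1. Neither match lay close to the annotated start, and the search took no account of position. The window of the other BCL2L1 start (chr20:31722869-31723118) had 0 matches to any of these motifs. The BAX window had 4 E-box matches, where MYC and related factors can bind, 2 CCAAT matches and 1 GC box, and 6.34% of all windows have an E-box. Windows of BBC3 and BID, genes that did not pass, had E-box matches too. Across the family, windows of 6 members had a GC box and windows of 5 a CCAAT match, BAD and BCL2L11 among both. The BAK1 window had 2 GC boxes and 1 CCAAT match; 42.6% of all windows have a GC box and 32.0% a CCAAT match. No match in the 3 windows was shared by all of them, and a match is only a run of letters.

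MCL1, a short-lived anti-apoptotic protein whose transcript is also spliced into a shorter pro-apoptotic form, had 47.6, 52.99 and 53.5 FPKM in libraries labelled knockdown 1 to 3 and 51.4, 49.5 and 51.5 FPKM in control libraries 1 to 3. Library labelled knockdown 1 was the lowest of all 6 and libraries 2 and 3 the highest, so the controls lay between them. The log2 difference was 0.01 (SE 0.06, limma adjusted p = 0.881), and its 95% interval ran from -7.30% to 10.03%. As for BCL2L1, its value sums the isoforms.

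BCL2 had 0.713, 0.795 and 0.573 FPKM in libraries labelled knockdown 1 to 3 and 0.710, 0.738 and 0.597 FPKM in control libraries 1 to 3. The groups covered nearly the same range. Its log2 difference was 0.01 (SE 0.07, limma adjusted p = 0.945), on a scale where a pseudocount of 1 FPKM damps a gene at this level; with a pseudocount of 0.1 FPKM the adjusted p was 0.952.

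Among BH3-only genes, PMAIP1, whose protein NOXA binds MCL1 and speeds its breakdown, had the widest spread. It stood at 17.5, 19.2 and 23.3 FPKM in libraries labelled knockdown 1 to 3, around 20.9, 20.4 and 20.1 FPKM in control libraries 1 to 3. Libraries 1 and 2 were below and library 3 above all controls. The coefficient of variation was 15.0% in the libraries labelled knockdown and 1.94% in controls, where counting alone gives 2.93% and 2.91%. The log2 difference was -0.04 (SE 0.08, limma adjusted p = 0.758), with a 95% interval from -14.8% to 10.6%, and it turned to 0.04 without library labelled knockdown 1.

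BCL2L11 makes BIM, an activator of BAX and BAK1 that also binds every major anti-apoptotic member. It had 1.57, 1.64 and 1.49 FPKM in libraries labelled knockdown 1 to 3 and 1.82, 1.60 and 1.90 FPKM in control libraries 1 to 3. Control library 2 fell inside the range of the libraries labelled knockdown, and the other controls were above it. The log2 difference was -0.11 (SE 0.07, limma adjusted p = 0.267; exact permutation p = 0.2), the lowest of the family, and it was negative in all 13 other settings that tested the gene. Beside BCL2L11 lies the lncRNA MIR4435-2HG, whose mouse counterpart Morrbid is known to restrain Bcl2l11. MIR4435-2HG had 1.96, 1.63 and 1.80 FPKM in libraries labelled knockdown 1 to 3, all above the 1.39, 1.43 and 1.37 FPKM of control libraries 1 to 3. Its difference was 0.34 on the log2(FPKM + 0.1) scale (SE 0.16) and did not pass (limma adjusted p = 0.573). In the lncRNA table limma called 0 of 3092 genes tested, with 284 at an unadjusted p under 0.05, and 15.6% had groups without overlap (7.99% higher and 7.57% lower).

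BBC3, whose protein PUMA is a potent activator of BAX and BAK1, had 5.41, 6.30 and 6.06 FPKM in libraries labelled knockdown 1 to 3 and 6.50, 5.47 and 6.08 FPKM in control libraries 1 to 3 (log2 difference -0.02, limma adjusted p = 0.875). The groups overlapped almost fully. BID, which caspase-8 cuts to link death receptors to mitochondria, had 14.5, 15.1 and 13.2 FPKM in libraries labelled knockdown 1 to 3 and 13.8, 13.7 and 13.8 FPKM in control libraries 1 to 3 (log2 difference 0.04, limma adjusted p = 0.639). The controls were nearly equal and the libraries labelled knockdown lay on both sides of them. BAD, which growth factor kinases silence by phosphorylation, had 21.7, 22.7 and 19.6 FPKM in libraries labelled knockdown 1 to 3 and 20.1, 20.5 and 19.9 FPKM in control libraries 1 to 3 (log2 difference 0.07, limma adjusted p = 0.406). Libraries labelled knockdown 1 and 2 were above and library 3 below all controls. BAD overlaps GPR137 in RefSeq, so without stated strand their reads can be mixed; GPR137 stood at 20.8 to 23.96 FPKM in the libraries labelled knockdown and at 21.4 to 24.5 FPKM in controls.

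**Figure D3:**
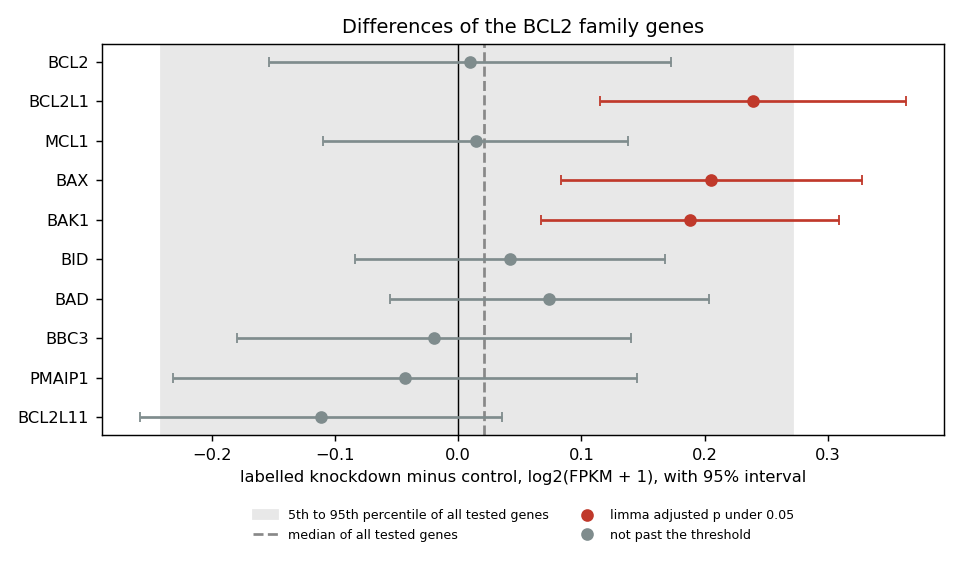
Labelled knockdown minus control on the log2(FPKM + 1) scale (horizontal axis) for the 10 family genes, with 95% intervals from limma; red points passed at an adjusted p under 0.05. The grey band holds the middle of all 10823 tested genes, from -0.24 (5th percentile) to 0.27 (95th percentile), and BCL2L1, BAX and BAK1 lie inside it at 0.24, 0.21 and 0.19.

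The rises were modest among all genes. Ranked among the log2 differences of all tested genes, BCL2L1 stood at percentile 92.5, BAX at 89.1 and BAK1 at 87.0. BCL2L11 stood at percentile 19.2. The libraries labelled knockdown varied more than controls for 8 of the 10 members, BBC3 and BCL2L11 being the exceptions. Within that group library 2 was the highest for 7 of the 10 members, and libraries 1 and 3 were each the lowest for 5.

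The balance between members was read within each library, where a scaling of the whole library cancels. These ratios are a description with no test. MCL1 over BAX was 0.915, 0.896 and 0.937 in libraries labelled knockdown 1 to 3 and 1.07, 1.01 and 1.06 in control libraries 1 to 3. MCL1 over BAK1 was 2.08, 2.07 and 2.20 in libraries labelled knockdown 1 to 3 and 2.40, 2.43 and 2.38 in control libraries 1 to 3. Neither ratio overlapped between groups, and all 3 libraries labelled knockdown had less MCL1 transcript per effector transcript. BCL2L1 over BAX was 1.405, 1.176 and 1.128 in libraries labelled knockdown 1 to 3 and 1.241, 1.191 and 1.175 in control libraries 1 to 3, so the groups overlapped. BCL2L1 over MCL1 was 1.536, 1.313 and 1.204 in libraries labelled knockdown 1 to 3, all above the 1.159, 1.177 and 1.106 of control libraries 1 to 3, with library labelled knockdown 3 close to the controls. MCL1 over PMAIP1 was 2.72, 2.77 and 2.30 in libraries labelled knockdown 1 to 3 and 2.46, 2.43 and 2.56 in control libraries 1 to 3, with overlap. Of 45 pairs of members, 15 had ratios that did not overlap, and each of these involved BCL2L1, BAX, BAK1 or BCL2L11. Each member recurs in several pairs, so these ratios partly repeat the differences of single members given above. The share without overlap of 37.9% is for single genes and is no background for ratios. No such background is given here for pairs of other genes.

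**Figure D4:**
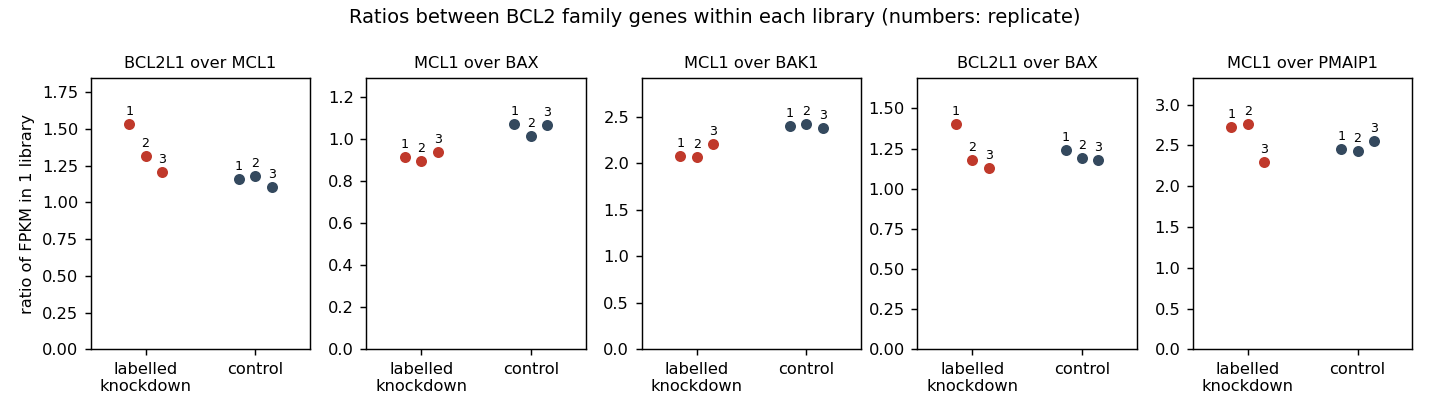
Ratio of the FPKM of 2 family genes within the same library (vertical axes, from 0) for 5 pairs, in the 3 libraries labelled knockdown (red, left) and the 3 controls (dark, right), with replicate numbers. MCL1 over BAX and MCL1 over BAK1 are lower in every library labelled knockdown than in any control, while BCL2L1 over BAX overlaps between groups.

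Summed over the 10 genes, the family held 257.1, 272.9 and 263.3 FPKM in libraries labelled knockdown 1 to 3 and 244.4, 239.4 and 240.8 FPKM in control libraries 1 to 3. The 5 BH3-only genes held 23.6%, 23.7% and 24.1% of that sum in libraries labelled knockdown 1 to 3, all below the 25.9%, 25.8% and 25.7% of control libraries 1 to 3. In FPKM the BH3-only sum overlapped between the groups, at 63.0 ± 2.09 in the libraries labelled knockdown and 62.2 ± 0.864 in controls (SD, n = 3 each). The effectors together reached 80.3 ± 5.00 FPKM in the libraries labelled knockdown and 69.6 ± 0.401 FPKM in controls (SD, n = 3 each). The anti-apoptotic genes reached 121.1 ± 2.46 FPKM and 109.7 ± 1.76 FPKM, in the same order, and their share of the family sum overlapped between groups.

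Of 13 further family members, 6 were tested and limma called 0, with 2 at an unadjusted p under 0.05 and 0 called by voom. BCL2L2, which encodes the anti-apoptotic BCL-W, had 5.51, 6.98 and 6.15 FPKM in libraries labelled knockdown 1 to 3 and 4.92, 4.99 and 5.32 FPKM in control libraries 1 to 3. All libraries labelled knockdown were above the controls, and the log2 difference of 0.24 (SE 0.08) narrowly missed the threshold (limma adjusted p = 0.0511). It passed in 5 of 14 other settings, with adjusted p from 0.0150 to 0.164. The other 7, BCL2A1, BCL2L10, BCL2L14, BCL2L15, BMF, BNIP3 and HRK, were below the filter, and BCL2L14 was at 0 in all libraries.

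Downstream of the family, pore and apoptosome genes went both ways, with 2 higher and 3 lower of 12 tested. Among all genes tested 10.9% were higher and 5.91% lower. The median log2 difference was 0.04 and the mean -0.02. Of the 3 outer membrane channel genes VDAC2 and VDAC1 rose, VDAC2, which binds BAK1, to 82.9 ± 1.42 FPKM in the libraries labelled knockdown against 71.4 ± 0.542 FPKM in controls, and VDAC1 to 130.1 ± 11.3 FPKM against 107.7 ± 0.777 FPKM (SD, n = 3 each; limma adjusted p = 0.0124 and 0.0193). The third, VDAC3, named after its value was seen, had 42.6, 42.8 and 41.8 FPKM in libraries labelled knockdown 1 to 3, all below the 42.98, 43.1 and 46.5 FPKM of control libraries 1 to 3 (log2 difference -0.06, adjusted p = 0.440). APAF1, the scaffold that cytochrome c assembles into the apoptosome, fell to 3.91 ± 0.411 FPKM in the libraries labelled knockdown against 4.99 ± 0.0950 FPKM in controls (limma adjusted p = 0.0193). XIAP, which inhibits caspases, fell to 5.16 ± 0.690 FPKM in the libraries labelled knockdown against 6.83 ± 0.484 FPKM in controls (adjusted p = 0.0200).

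These calls were less firm when libraries were left out. VDAC2 was lost without control libraries 2 (adjusted p = 0.0742) and 3 (0.0647), within 0.00851 to 0.0996 over 14 settings. For VDAC1 the values without library labelled knockdown 2 and control libraries 1, 2 and 3 were 0.0508, 0.0640, 0.0824 and 0.0677 (range from 0.00570 to 0.0824). APAF1 was lost without control libraries 1, 2 and 3 (0.0637, 0.0664 and 0.0643; range from 0.00680 to 0.0664) and XIAP without control libraries 2 and 3 (0.0548 and 0.0880; range from 0.00653 to 0.0880). With no filter on low values VDAC1, APAF1 and XIAP failed as well (0.0600, 0.0654 and 0.0798), and VDAC2 failed with quantile normalization (0.0996).

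Of 13 tested transcription factors known to act on family genes, 5 rose and 1 fell, with a median log2 difference of 0.08. Among all genes tested 10.9% rose and 5.91% fell. JUN had 28.5, 29.5 and 30.1 FPKM in libraries labelled knockdown 1 to 3 and 21.0, 20.9 and 20.9 FPKM in control libraries 1 to 3 (log2 0.47, limma adjusted p = 2.73e-04). MYC had 53.1, 52.2 and 54.4 FPKM in libraries labelled knockdown 1 to 3 and 42.8, 42.6 and 41.2 FPKM in control libraries 1 to 3 (log2 0.33, adjusted p = 0.00204). FOXO1, which can induce BCL2L11 and BBC3, rose to 5.23 ± 0.525 FPKM in the libraries labelled knockdown against 3.86 ± 0.170 FPKM in controls (adjusted p = 0.00978). These 3 passed in every other setting that tested them. ATF4, of the stress response that can induce PMAIP1, fell to 179.6 ± 14.5 FPKM in the libraries labelled knockdown against 224.7 ± 7.15 FPKM in controls (adjusted p = 0.0104), a call lost without control libraries 2 and 3 (0.0578 and 0.0508; range from 4.36e-04 to 0.0578). RELA and E2F1, named beyond the rule after their values were seen, rose by 0.23 each (log2, adjusted p = 0.0202 and 0.0236). Without control library 2 they were at 0.0688 and 0.125, without control library 3 at 0.0845 and 0.0851 and without library labelled knockdown 2 at 0.0668 and 0.0889, and RELA was also lost without control library 1 (0.0628; ranges from 0.00470 to 0.0845 and from 0.0140 to 0.125). Both also failed with no filter (0.0526 and 0.0602) and with quantile normalization (0.0551 and 0.0945).

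Of 19 tested genes whose products act on family proteins, 1 rose and 1 fell, a share below the 16.8% of all genes tested. PIM3, a kinase that phosphorylates BAD, rose to 65.0 ± 2.33 FPKM in the libraries labelled knockdown against 47.4 ± 1.70 FPKM in controls (log2 0.45, limma adjusted p = 6.29e-04) and passed in all 14 other settings. Its relative PIM1 fell to 11.6 ± 0.210 FPKM in the libraries labelled knockdown against 13.3 ± 0.439 FPKM in controls (log2 -0.18, adjusted p = 0.0314). The PIM1 call was lost without library labelled knockdown 2 (0.0862) and control libraries 1, 2 and 3 (0.0720, 0.161 and 0.0861; range from 0.0130 to 0.161). The MCL1 ubiquitin ligase gene HUWE1 and its opponent USP9X had log2 differences of 0.08 and -0.05 (adjusted p = 0.386 and 0.664). Over the 19 genes the median log2 difference was 0.02.

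Of 14 tested splicing regulators known to act on BCL2L1, MCL1 or BCL2L11, PTBP1 rose and HNRNPH1 fell, and the list's median was -0.04. The share that passed lay near the 16.8% of all genes tested. PTBP1 had 161.3, 159.8 and 145.7 FPKM in libraries labelled knockdown 1 to 3 and 132.9, 127.3 and 124.4 FPKM in control libraries 1 to 3 (log2 0.28, limma adjusted p = 0.0115). HNRNPH1 had 3.92, 3.08 and 3.12 FPKM in libraries labelled knockdown 1 to 3 and 4.98, 3.78 and 5.403 FPKM in control libraries 1 to 3, with overlap between the groups (log2 -0.38, adjusted p = 0.0379). PTBP1 was lost without library labelled knockdown 2 (0.0507) and control libraries 2 and 3 (0.0635 and 0.0625; range from 0.00344 to 0.0635). HNRNPH1 was lost without libraries labelled knockdown 2 and 3 (0.125 and 0.0688) and control libraries 1 and 3 (0.113 and 0.147; range from 0.0149 to 0.147), and with no filter (0.134) or quantile normalization (0.0651). Isoforms of the family genes were not analysed here, since each of the 10 has 1 row in the mRNA table.

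Of 11 tested immediate early and heat shock genes 4 rose, JUN, EGR1, IER2 and ZFP36, and 0 fell, beside 10.9% and 5.91% of all genes tested. Their 15 genes summed to 1004 to 1106 FPKM in the libraries labelled knockdown and to 958.4 to 983.8 FPKM in controls, and none was at 0 in all libraries. Of 13 mitochondrial mRNAs 2 rose, MT-ND2 and MT-ND6, and 0 fell, a share near the 16.8% of all genes that passed. The median log2 difference of the 13 was 0.36, above the 95th percentile of all tested genes (0.27). At an unadjusted p under 0.05 there were 6, and voom called 7. Of these mRNAs limma called 6 with robust empirical Bayes, but 0 with no filter on low values and 0 with median scaling. Their sum was 73651 to 108068 FPKM in the libraries labelled knockdown and 70369 to 74760 FPKM in controls, with overlap, and all 13 were highest in library labelled knockdown 1. ZFP36 was lost without control libraries 2 and 3 (limma adjusted p = 0.0564 and 0.0932; range from 0.0112 to 0.0932). MT-ND2 and MT-ND6 were each lost in 7 of 14 other settings, among them without library labelled knockdown 2 (0.104 and 0.137) and without control libraries 1 (0.115 and 0.112), 2 (0.149 and 0.158) and 3 (0.188 and 0.199), with ranges from 0.0106 to 0.563 and from 0.00611 to 0.611. The part of the immediate early and heat shock genes in the rises of BCL2L1, BAX and BAK1 was not tested.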

How the data were processed

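RNA was sequenced from 3 libraries labelled SRSF3 knockdown and 3 control libraries. The authors deposited FPKM values per gene symbol in an mRNA and a lncRNA table. The submitters' processing notes list HISAT2, StringTie, Cuffdiff and edgeR without versions or roles. The sources used here give no genome build, annotation or use of strand. Per the labels' protocols, poly(A) and rRNA-depleted preparations were made; which one gave these values is not stated.

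Whole fragments were recovered as FPKM × length × total, within 0.003 fragments, for 14776 of 14803 mRNA rows above 0 in at least 3 libraries, the 10 family genes included, with lengths up to 250000 bases searched. Intervals from such counts would cover counting error only. The main test used limma 3.58.1 in R 4.3.3 (lmFit, eBayes with trend, two-sided) on log2(FPKM + 1), mean of at least 0.5 FPKM, or log2(FPKM + 0.1) and 0.1 FPKM for lncRNA, without rescaling. Fold changes on these scales understate low genes. The recovery and the limma fit were tested on simulated data. The counts simulated for the fit had the same spread in both groups, unlike these libraries. They therefore cannot show the error rates of the fit here. Python 3.11.15 was used. List symbols were all found; DIABLO, with 2 rows, was left out.

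The family and the gene lists were chosen with earlier results of these data known. All 10 members were named, and of each list reported up to 4 genes past the threshold with the smallest p, or the 1 with the smallest p where none passed; VDAC3, HUWE1, USP9X, RELA and E2F1 were added after their values were seen. Some genes of the lists, and 1 list, are not reported here. Tried as alternatives were a pseudocount of 0.1 FPKM, filters of none and 5 FPKM, voom on recovered fragments, a replicate block, robust empirical Bayes, scaling by medians or quantiles, and omission of each library. Promoter sequences are from RefSeq (GRCh38.p14), which held 9 of the 10 members.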

Additional observations from a re-analysis of the deposited data

How the results depend on the processing

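Over all mRNA genes 1819 passed, of which 1179 rose and 640 fell in the labelled knockdown. The split was 817 and 808 with quantile normalization and 924 and 1051 with voom, and with no filter on low values 960 genes passed. Leaving out each library in turn gave 643 to 2742 genes: 842 without library labelled knockdown 2 and 2742 without library 3, and 1079, 643 and 646 without control libraries 1, 2 and 3. Of the family, 3 genes passed as reported, against 1 with no filter, 1 with quantile normalization and 2 with voom. Leaving out each library gave 0 to 3, with 0 without library labelled knockdown 2, control library 2 or control library 3 and 1 without control library 1. BCL2L1, BAX and BAK1 were higher in every setting run.

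Log2 differences of some genes that never passed changed sign, while those of BAD, BCL2L11 and SRSF3 kept theirs. MCL1 was at -0.0786 with quantile normalization and -0.0224 with voom, and leaving out each library gave -0.0155 to 0.0671, with -0.0088 without library labelled knockdown 2 and -0.0042 without control library 2. BCL2 was at -0.0190 with voom and at -0.0337 to 0.0617 with each library left out. BID was at -0.0114 with quantile normalization. With each library left out BBC3 ranged from -0.0765 to 0.0348 and PMAIP1 from -0.154 to 0.0432. CD14 was at -0.0292 with voom and ranged from -0.0366 to 0.0398. The cause was not tested.

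Deviations of libraries with the same replicate number correlated by 0.08, 0.04 and 0.28 across genes, so the numbers are not taken to pair the libraries, and library labelled knockdown 2 correlated best with control library 1. With the replicate block 2323 genes passed, and 3 family genes passed. The precision is that of 3 libraries a group. For BCL2, the least abundant family gene, the interval ran from -10.1% to 12.7% of FPKM + 1. At its level that understates the width in FPKM. The SE of its log2 difference was 0.07 as reported and 0.16 with a pseudocount of 0.1 FPKM.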
